A study of Mus musculus with 2 samples.

Results

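*Nf1*, the 2 genes *Nras* and *Hras* of the RAS family, 4 further RAS GTPase-activating genes (*Rasa1*, *Rasa2*, *Rasa3* and *Rasal2*) and 2 *Spred* genes (*Spred1* and *Spred2*) were followed across the cells of mouse *Nf1*-OPG optic nerves. These 9 genes were taken by symbol, and all 9 are among the 32285 genes counted. Single-cell RNA sequencing gave 2 libraries, named C-ON (titled as control) and FMC_new, both from optic nerves labelled NF1-OPG. The mice were 12 weeks old, and nerves of 10 mice were pooled, so neither library is a single animal. The genotype is *Nf1* flox/mut; GFAP-Cre on C57BL/6, with 1 floxed and 1 mutated *Nf1* allele and Cre driven by the promoter of *Gfap*, an astroglial gene. Cells in which Cre was never active thus keep 1 working *Nf1* allele. Both libraries share this genotype, and what the titles "control" and "FMC" refer to is not given, so the libraries were read as 2 replicates of 1 group. No *Nf1* wild-type optic nerve was analysed here.

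RAS proteins are membrane-bound switches that are active with GTP bound and pass signals from growth factor receptors to RAF, MEK and ERK. Exchange factors such as SOS1 load GTP, and GTPase-activating proteins, among them neurofibromin (the product of *Nf1*) and the products of *Rasa1*, *Rasa2*, *Rasa3* and *Rasal2*, return RAS to its inactive form. SPRED proteins bind neurofibromin and bring it to the membrane. In neurofibromatosis type 1, loss of neurofibromin in glial precursors leaves RAS overactive and leads to optic pathway glioma.

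C-ON held 85101211 UMIs (unique molecular identifiers, each standing for 1 captured RNA molecule) in 10845 barcodes, and FMC_new 129113325 in 21341. After filters on genes, UMIs and mitochondrial RNA, 8834 and 16818 cells were kept, and 188 of their barcodes occurred in both libraries. Clusters were named only from marker genes, with "-like" for that reason, and the 9 genes took no part in the clustering. Of the 15 classes named, 11 had at least 20 cells in both libraries, and every order of classes given is over these 11 unless said otherwise. Clusters left unnamed held 816 cells of C-ON (9.24%) and 2477 of FMC_new (14.7%). They include clusters of 1062, 814 and 639 cells that best matched dendritic cell-like, oligodendrocyte-like and microglia-like markers. All 11 markers of the tumor-like class (215 cells in C-ON, 1363 in FMC_new) were found in at least 20% of the cells of each of its clusters, both libraries pooled. *Pdgfra* had 909.9 and 739.6 CPM (UMIs of a gene per 1000000 UMIs of its class and library) in tumor-like cells, against 0.345 and 1.26 in oligodendrocyte-like cells. These markers are also those of normal oligodendrocyte progenitors, so progenitors and tumor cells cannot be told apart, and the study picked 2 of them, *Neu4* and *Gpr17*, from data that include these libraries. The libraries differ in free RNA. *Gh*, a pituitary hormone gene, had 5420.0 CPM in the T cell-like cells of FMC_new and no UMI in those of C-ON, while *Omg*, a myelin gene, had 49.0 CPM there in C-ON and 3.42 in FMC_new.

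In GRCm38 *Nf1* lies at chr11:79339693-79581612 on the + strand and spans 241920 bases. Protein-coding genes lie inside it on the opposite strand: *Omg* at chr11:79500982-79504084, which encodes a myelin glycoprotein, *Evi2b* at chr11:79515056-79523762 and *Evi2a* at chr11:79526560-79530609. The feature *Evi2* overlaps *Evi2a* and *Evi2b*, and UMIs can be split between the 3. *Rasa1*, at chr13:85214780-85289130 on the - strand, overlaps the end of *Ccnh*, a cyclin gene on the + strand. The strand setting of the counting is not given in the sources used here, so the levels of these neighbours are given beside those of *Nf1* and *Rasa1*. The 5′ kit reads the start of a transcript and UMIs were summed per gene, so the floxed part of *Nf1* is not resolved, and RNA from a recombined or mutated allele can still be counted as *Nf1*.

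*Nf1* was highest in tumor-like cells, then in microglia-like and dendritic cell-like cells, and lowest in ILC2-like and plasma cell-like cells. In tumor-like cells it reached 124 CPM in C-ON (105 to 145) and 95.3 in FMC_new (88.5 to 103), with exact 95% Poisson intervals that cover counting error only, and a mean of 109 ± 20.01 CPM (SD, n = 2 libraries). Microglia-like cells, the resident macrophages of the nerve, had 98.7 (81.2 to 119) and 89.9 CPM (82.9 to 97.3). Dendritic cell-like cells had 69.6 (55.4 to 86.3) and 88.9 CPM (80.1 to 98.5). This class leaves out a cluster of 1062 cells led by *Cd209c* and *Ccl17*. That cluster best matched dendritic cell-like markers but stayed unnamed, since it also had markers of monocytes. The intervals of tumor-like cells lay above those of 8 of the 10 other classes in both libraries, and overlapped those of microglia-like cells in both and of dendritic cell-like cells in FMC_new. Oligodendrocyte-like cells, which make myelin, had 65.7 (63.3 to 68.0) and 60.7 CPM (57.2 to 64.3), next to macrophage-like cells with 66.5 and 54.4 CPM and fibroblast-like cells with 50.4 and 47.2 CPM. Among lymphocytes, the level was 35.4 and 46.9 CPM in B cell-like, 30.2 and 38.2 CPM in NK cell-like and 29.8 and 29.1 CPM in T cell-like cells. Plasma cell-like cells, whose RNA is dominated by immunoglobulin transcripts, had 18.0 (14.3 to 22.5) and 14.7 CPM (12.6 to 17.0), and ILC2-like cells, on few cells, 23.6 (2.85 to 85.1) and 10.3 CPM (2.12 to 30.1). The 4 remaining classes had enough cells only in FMC_new, where *Nf1* reached 74.2 CPM in astrocyte-like, 68.3 in pituitary endocrine-like, 37.3 in neutrophil-like and 19.5 in plasmacytoid dendritic cell-like cells. No pair of neighbouring classes in this order was apart in both libraries, although the order itself was close to the same in both (Spearman rho = 0.98 over 11 classes). Under TMM scaling, which sets the bulk of genes equal between classes, microglia-like cells came first with 99.9 CPM and tumor-like cells had 80.6 CPM (means of 2 libraries).

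**Figure D1:**
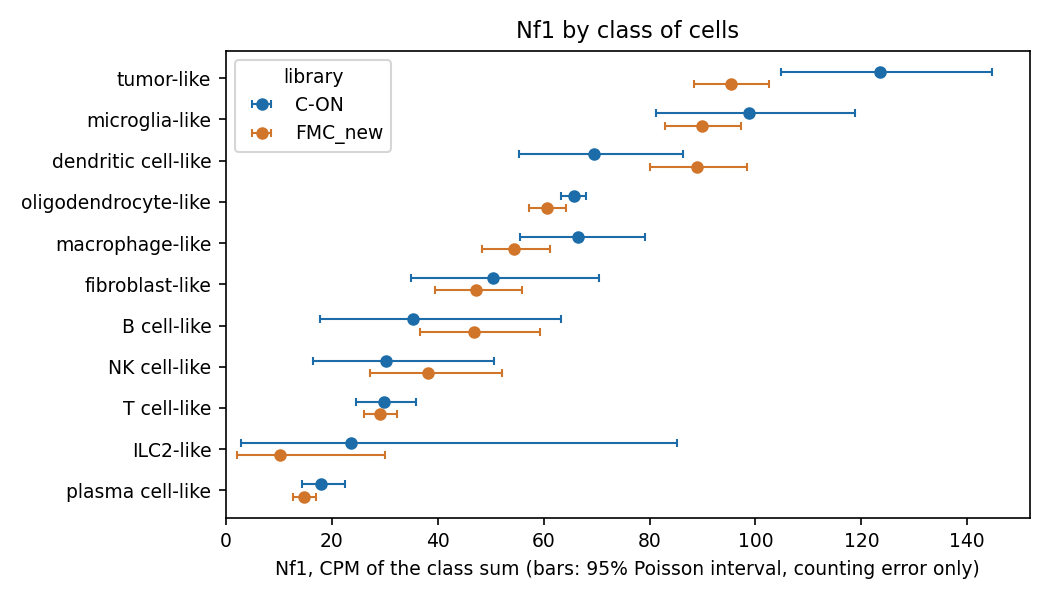
*Nf1* level in CPM (x axis) in each of 11 classes (y axis, ordered by the mean of both libraries), with a point per library and bars for the exact 95% Poisson interval. Tumor-like cells lie at 124 and 95.3 CPM, plasma cell-like cells at 18.0 and 14.7.

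*Nf1* UMIs were found in 35.3% of tumor-like cells in C-ON and 34.9% in FMC_new, at median depths of 5313 and 5325 UMIs. In plasma cell-like cells, the class with the lowest level, the shares were 15.7% and 13.1% at 10716 and 11729.5 UMIs. With each cell thinned to 1000 UMIs, the shares became 10.9% (7.04% to 15.9%, exact Clopper-Pearson) and 9.22% (7.70% to 10.9%) in tumor-like cells, against 1.45% and 1.95% in plasma cell-like cells. Thinning kept 211 of 215 and 1290 of 1363 tumor-like cells, and 415 of 415 and 1077 of 1084 plasma cell-like cells. The order of the 2 classes was thus the same at like depth. A cell without an *Nf1* UMI is thus no sign of a cell without *Nf1* RNA at this depth.

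The genes inside *Nf1* were distributed otherwise. *Omg* was highest in oligodendrocyte-like cells (354 and 317 CPM) and lower in tumor-like cells (173 and 156 CPM), the opposite order to *Nf1*. *Evi2a* had 144 and 156 CPM in oligodendrocyte-like, 83.6 and 78.1 CPM in microglia-like and 27.9 and 31.6 CPM in tumor-like cells. *Evi2b* stayed at or below 15.1 CPM in every class and library. Dendritic cell-like cells had 87.2 and 94.2 CPM of *Evi2a*. The class with most *Nf1* was thus not the class with most *Omg* or *Evi2a*. Microglia-like and dendritic cell-like cells, next in the order of *Nf1*, came after oligodendrocyte-like cells for *Evi2a*. The part of RNA from the opposite strand in the *Nf1* levels was not tested. *Ccnh*, the neighbour of *Rasa1*, had 98.1 and 85.6 CPM in tumor-like and 47.6 and 47.9 CPM in T cell-like cells, where *Rasa1* had 41.5 and 43.5 CPM and 98.2 and 116 CPM.

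Across clusters, *Nf1* was higher where *Malat1* was higher. *Malat1* is a long noncoding RNA held in the nucleus. Over the 64 sums of a cluster in a library with at least 20 cells, the log2 levels of *Nf1* and *Malat1* had a Pearson r of 0.66 and a Spearman rho of 0.62, within C-ON an r of 0.67 and within FMC_new 0.66. These sums share 2 libraries and free RNA, and the correlation is a description. Among oligodendrocyte-like cells, in the largest cluster, led by *Opalin* and *Mal*, *Nf1* had 48.6 and 46.4 CPM and *Malat1* 9527 and 8449 CPM. In another of their clusters, led by *A230001M10Rik*, *Ctnna3* and *Nkain2* (667 and 185 cells), *Nf1* had 162 and 145 CPM and *Malat1* 20258 and 14980.5 CPM. *Hras* went the other way there, with 34.4 and 25.8 CPM against 78.9 and 68.5 CPM in the *Opalin* cluster. *Malat1* did not go with every high value: a small oligodendrocyte-like cluster that also carries microglial genes (36 and 233 cells, median 2407 and 2044 UMIs) had 171 and 116 CPM of *Nf1* at 10701 and 8630.1 CPM of *Malat1*. With *Malat1*, *Rasal2* had an r of 0.58, *Spred1* 0.47, *Spred2* 0.40, *Rasa3* 0.33, *Hras* 0.26, *Nras* 0.20, *Rasa2* 0.17 and *Rasa1* 0.10. *Nf1* and *Rasal2*, with the highest r, span 241920 and 277414 bases, and *Rasa1* and *Rasa2*, with the lowest, 74351 and 92318 bases. *Spred1*, *Spred2* and *Rasa3* span 60906, 99652 and 110656 bases, and *Hras* and *Nras* 4901 and 9630 bases. The part of gene length in these r values was not tested. Whether the counts include introns is not given in the sources used here, and its part in these values was not tested. The labels and the study's methods name different versions of the counting program, and these versions differ in whether introns are counted by default.

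**Figure D2:**
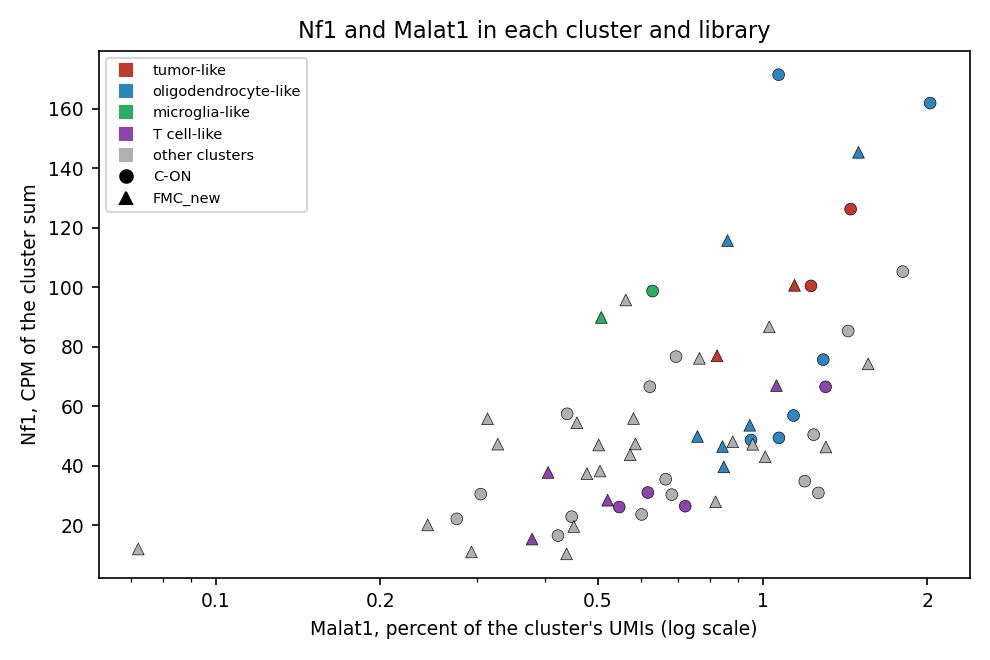
*Nf1* in CPM (y axis) against *Malat1* as percent of UMIs (x axis, log scale), with a point for each cluster of at least 20 cells in each library, coloured by class. The r over these 64 points is 0.66 on log2 values, and the oligodendrocyte-like points run from 39.6 to 171 CPM.

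Cells were also split by the share of their own UMIs from *Malat1*, with limits of 0.5% and 1.5% chosen after the data were seen. In tumor-like cells of FMC_new, *Nf1* had 55.3, 83.7 and 157 CPM below, between and above these limits, and in their oligodendrocyte-like counterparts 28.5, 59.6 and 115 CPM. In C-ON the values were 71.4, 105 and 159 CPM in tumor-like cells and 35.2, 53.9 and 116 CPM in oligodendrocyte-like cells. At a like share of *Malat1*, *Nf1* in tumor-like cells of FMC_new was 1.94 (1.41 to 2.67), 1.41 (1.24 to 1.59) and 1.36 (1.15 to 1.62) times that in oligodendrocyte-like cells, and in C-ON 2.03 (0.86 to 4.10), 1.96 (1.51 to 2.49) and 1.37 (1.08 to 1.72) times, each with its 95% interval. All 6 ratios were above 1, and only the interval of the lowest range in C-ON, with 8 *Nf1* UMIs in tumor-like cells, reached below it. No range had at least 1.5 times in both libraries with both intervals above 1, the rule used for calls below. Against microglia-like cells the order turned. In FMC_new these had 60.9, 129 and 246 CPM in the 3 ranges, each above tumor-like cells, with intervals apart in the middle range only. In C-ON they had 68.4, 119.8 and 129.5 CPM, above tumor-like cells in the middle range, with overlapping intervals in all 3. The highest range held only 19 microglia-like cells in FMC_new (95% interval 148 to 384 CPM) and 7 in C-ON (42.1 to 302 CPM). The place of tumor-like cells above microglia-like cells thus did not hold at a like share of *Malat1* in FMC_new or in the middle range of C-ON. Of the 2 tumor-like clusters, the larger, led by *Neu4*, *C1ql1* and *Pdgfra*, had 126 and 101 CPM of *Nf1*, and the smaller, in which *Gpr17* stood second (20 and 467 cells), had 100.4 and 77.0 CPM with *Malat1* at 12262 and 8258 CPM, against 14493 and 11442 CPM in the larger.

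*Rasa1*, which encodes a GTPase-activating protein recruited to activated receptors, was highest in T cell-like and NK cell-like cells. T cell-like cells had 98.2 CPM in C-ON (88.4 to 109) and 116 in FMC_new (109.6 to 122), NK cell-like cells 79.9 and 122 CPM. The intervals of T cell-like cells lay above those of 8 of the 10 other classes in both libraries. Tumor-like cells had 41.5 and 43.5 CPM, oligodendrocyte-like cells 27.8 and 32.1 CPM and plasma cell-like cells 12.1 and 15.5 CPM. ILC2-like cells differed between libraries, with 106 (48.5 to 201) and 30.9 CPM (14.1 to 58.7), on 27 and 67 cells. NK cell-like cells took the first place under 4 of 14 alternatives and ILC2-like cells under 1.

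*Rasa2*, the gene of a related GTPase-activating protein, also led in NK cell-like cells, with 77.7 CPM in C-ON (54.4 to 108) and 104 in FMC_new (85.0 to 125). T cell-like cells followed with 49.2 and 66.9 CPM and B cell-like cells with 48.3 and 57.6 CPM. Tumor-like cells had 47.0 (35.8 to 60.7) and 45.9 CPM (41.2 to 51.0), oligodendrocyte-like cells, at the low end, 14.6 (13.5 to 15.7) and 16.6 CPM (14.9 to 18.6), and microglia-like cells 19.6 and 15.0 CPM. Tumor-like cells thus lay apart from both oligodendrocyte-like and microglia-like cells in both libraries. With SCTransform, under which NK cell-like and ILC2-like cells had no value, T cell-like cells came first. Astrocyte-like cells had too few cells in C-ON for a value, and in FMC_new reached 162 CPM (127 to 203), next to 163 CPM in neutrophil-like cells.

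*Rasa3*, whose product acts on RAS and RAP1 at the membrane, was highest in the 2 classes of the oligodendrocyte lineage. Oligodendrocyte-like cells had 105 CPM in C-ON (102 to 108) and 122 in FMC_new (117 to 127) and tumor-like cells 112 (93.9 to 132) and 97.8 CPM (90.9 to 105). The intervals of each lay above those of 7 of the 10 other classes in both libraries. NK cell-like cells had 73.4 and 93.0 CPM and B cell-like cells 90.1 and 66.4 CPM, above T cell-like (54.3 and 51.0 CPM) and microglia-like cells (56.9 and 42.9 CPM). Fibroblast-like cells were lowest, with 22.2 and 13.3 CPM. Tumor-like cells took the first place with SCTransform and without FMC_new.

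*Rasal2*, a RAS GTPase-activating gene of the same family, was highest in oligodendrocyte-like cells, with a clear gap. Oligodendrocyte-like cells had 168 CPM in C-ON (164 to 172) and 137 in FMC_new (132 to 142), apart from every other class in both libraries and under all 14 alternatives the highest. Of the 11 classes, tumor-like cells came next with 92.5 (76.4 to 111) and 49.8 CPM (44.9 to 55.1), above 7 of the others in both libraries. In FMC_new astrocyte-like cells (89.5 CPM) and pituitary endocrine-like cells (82.6 CPM) were higher than tumor-like cells. In leukocytes the libraries disagreed. T cell-like cells had 29.0 (23.8 to 35.0) and 3.85 CPM (2.81 to 5.15) and NK cell-like cells 43.2 and 13.7 CPM, macrophage-like cells 56.2 and 22.1 CPM, while dendritic cell-like cells had 12.6 and 12.8 CPM. The ratio of C-ON to FMC_new had its interval above 1 in 8 of 11 classes for *Rasal2* and 9 for *Omg*, with medians of 1.89 and 7.02 times. For *Nf1* it was above 1 in 2 classes and below 1 in 1, with a median of 1.08 times.

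*Omg* is a myelin gene, so its UMIs in leukocytes gauge free oligodendrocyte RNA. *Omg* had 49.0 and 3.42 CPM in T cell-like, 90.7 and 1.96 CPM in NK cell-like and 13.4 and 11.8 CPM in dendritic cell-like cells, against 354 and 317 CPM in oligodendrocyte-like cells. Macrophage-like cells had 49.5 and 3.63 CPM of *Omg*, microglia-like cells 40.9 and 2.79 CPM, B cell-like cells 61.2 and 8.71 CPM and plasma cell-like cells 29.2 and 5.91 CPM. In these 6 classes, dendritic cell-like cells left aside, *Rasal2* and *Omg* were both higher in C-ON with intervals of the ratio above 1. The part of free RNA in their *Rasal2* levels was not tested, and the levels in C-ON were not read as expression.

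**Figure D3:**
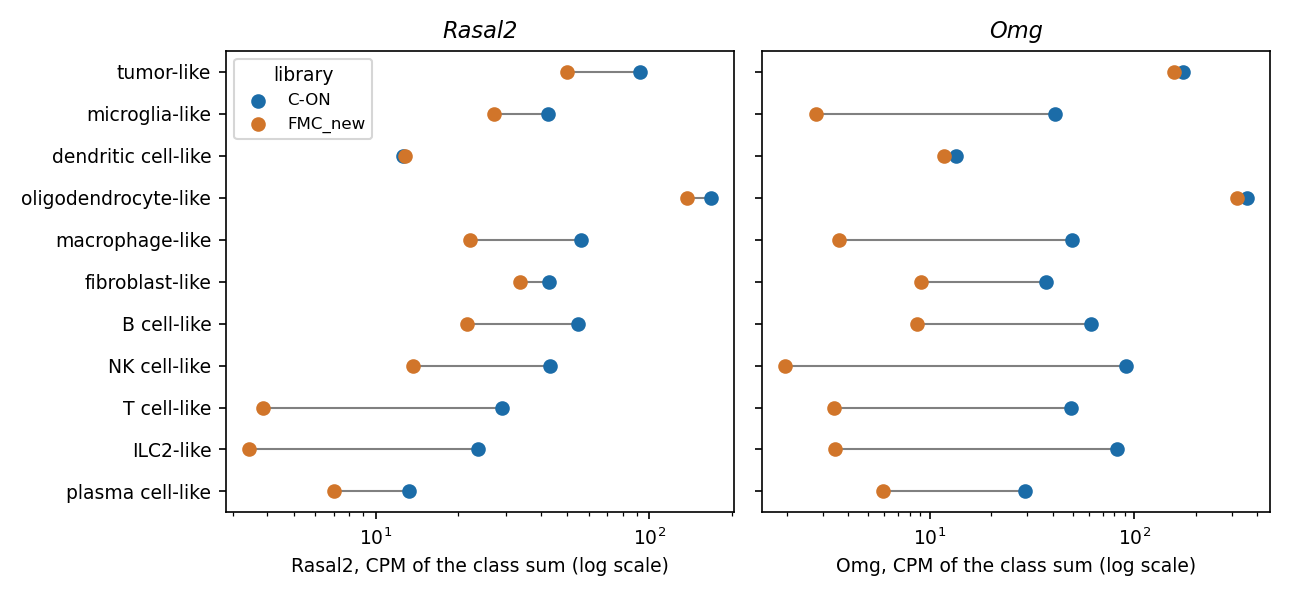
*Rasal2* (left) and *Omg* (right) in CPM (x axes, log scale) in 11 classes (y axis), with a point per library joined by a line. In T cell-like cells C-ON and FMC_new lie at 29.0 and 3.85 CPM for *Rasal2* and 49.0 and 3.42 for *Omg*, while in oligodendrocyte-like cells the points nearly meet.

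*Spred1*, mutated in Legius syndrome, a milder relative of neurofibromatosis type 1, was highest in tumor-like cells of the 11 classes with 98.9 CPM in C-ON (82.2 to 118) and 91.9 in FMC_new (85.1 to 99.0), while astrocyte-like cells, measured in FMC_new only, had 105 CPM. Oligodendrocyte-like cells had 76.4 (73.9 to 78.9) and 83.8 CPM (79.7 to 88.0) and macrophage-like cells 93.9 (80.7 to 109) and 56.5 CPM (50.3 to 63.3), and no pair of these 3 classes was apart in both libraries. TMM scaling put oligodendrocyte-like cells first. A step followed, from macrophage-like to microglia-like cells (46.2 and 33.1 CPM), whose intervals lay apart in both libraries. T cell-like cells had 16.8 and 12.5 CPM and plasma cell-like cells 4.11 and 3.29 CPM. ILC2-like cells had no UMI among 27 cells in C-ON (upper limit of the exact 95% interval 43.5 CPM), and 3.43 CPM in FMC_new. *Spred1* and *Nf1* had the most alike patterns among the 9 genes (Pearson r = 0.82 of log2(CPM + 1) over 24 sums of a class in a library with at least 50 cells).

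*Spred2*, its paralog, was also highest in tumor-like cells of the 11 classes, with 55.8 CPM in C-ON (43.5 to 70.5) and 40.5 in FMC_new (36.1 to 45.3), followed by NK cell-like (32.4 and 41.1 CPM) and T cell-like cells (26.6 and 34.7 CPM). Where the paralogs differed most was in oligodendrocyte-like cells, with 10.6 (9.66 to 11.6) and 11.3 CPM (9.80 to 12.9) of *Spred2*, near the bottom of its order, while oligodendrocyte-like cells stood second in the order of *Spred1*. The intervals of tumor-like cells for *Spred2* lay above those of 6 of the 10 other classes. Astrocyte-like cells of FMC_new, outside the 11 classes, had 61.1 CPM (40.6 to 88.3), above tumor-like cells there. Thinning to 1000 UMIs and leaving out C-ON put NK cell-like cells first.

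*Hras* was highest in oligodendrocyte-like, tumor-like and fibroblast-like cells. These had 71.4 and 55.6 CPM, 63.8 and 61.1 CPM and 60.8 and 55.9 CPM in C-ON and FMC_new, and no pair of them was apart. Tumor-like cells came first without C-ON, fibroblast-like cells without the highest Scrublet doublet scores. T cell-like cells had 41.2 and 37.3 CPM, microglia-like cells 26.7 (18.0 to 38.1) and 24.3 CPM (20.8 to 28.3) and plasma cell-like cells 19.0 and 11.7 CPM. For *Nras*, oligodendrocyte-like cells had 53.6 (51.5 to 55.7) and 55.7 CPM (52.4 to 59.2), T cell-like 45.8 and 41.1 CPM, tumor-like 40.7 and 45.0 CPM and microglia-like cells 40.9 and 38.3 CPM. Over their 570 coding bases *Hras* and *Nras* are identical at 75.1% of positions, with a longest identical run of 23 bases. No pair of neighbours was apart for either gene, and plasma cell-like cells had the lowest mean for both. Oligodendrocyte-like cells lay above 6 of the 10 other classes for *Hras* and above 4 for *Nras* in both libraries.

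**Figure D4:**
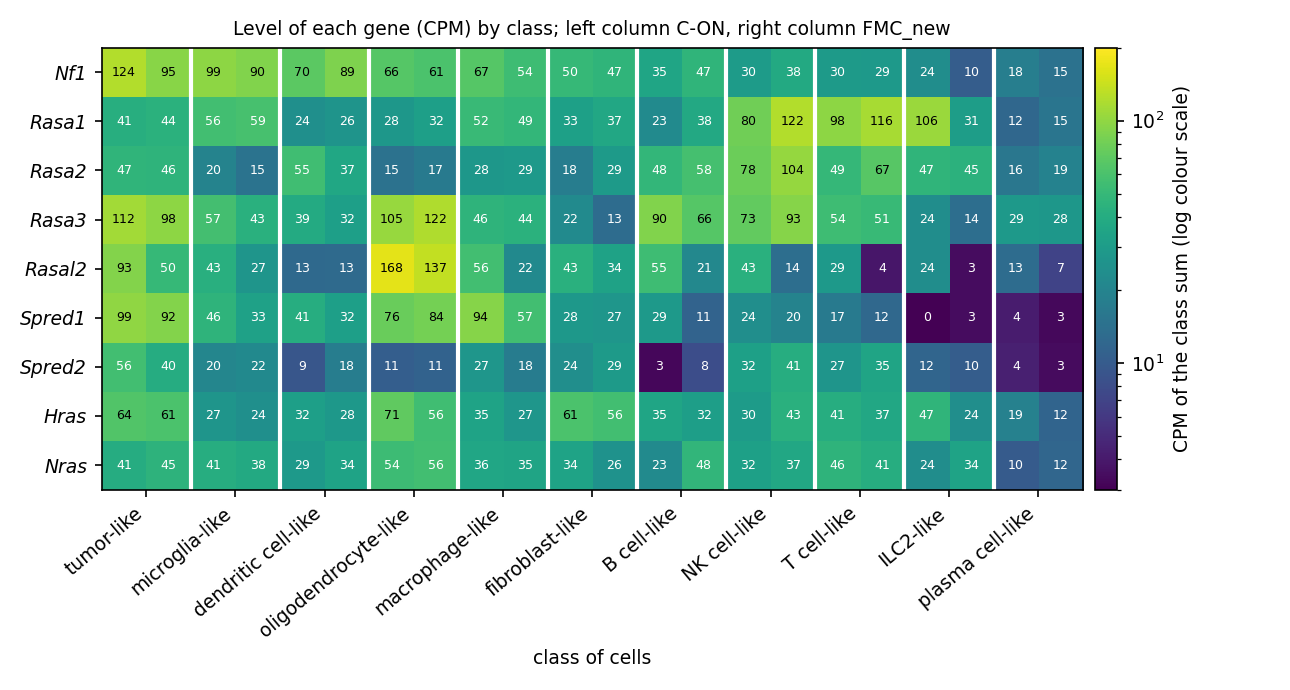
Level of each of the 9 genes (rows) in CPM in 11 classes (column pairs, C-ON left and FMC_new right), with the value printed and coloured on a log scale. Tumor-like cells have the highest mean for *Nf1*, *Spred1* and *Spred2*, oligodendrocyte-like cells for *Rasal2*, *Rasa3*, *Hras* and *Nras*, and T or NK cell-like cells for *Rasa1* and *Rasa2*. Levels are compared along rows, not between genes.

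Tumor-like cells were then set against 3 classes, the myelinating lineage next to them, the resident macrophages and the largest lymphocyte class. A gene was called when its CPM differed at least 1.5 times in the same direction in both libraries with both exact 95% intervals of the ratio on the same side of 1. No test of the difference was run over the 2 libraries: an exact sign-flip test over 2 cannot go below p = 0.5. The calls therefore describe these libraries.

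Against oligodendrocyte-like cells, *Nf1*, *Rasa2* and *Spred2* were higher in tumor-like cells and *Rasal2* was lower. *Nf1* was 1.88 times in C-ON (95% interval 1.59 to 2.21) and 1.57 times in FMC_new (1.43 to 1.73), or 0.78 ± 0.18 on the log2 scale (mean ± SD, n = 2 libraries). Of these 4 genes, *Nf1* differed least. *Rasa2* was 3.22 times in C-ON (95% interval 2.43 to 4.21) and 2.76 times in FMC_new (2.36 to 3.22). *Spred2* was 5.28 times in C-ON (95% interval 4.05 to 6.79) and 3.60 times in FMC_new (3.01 to 4.30), the largest difference of the 9 here. *Rasal2* was 0.55 times in C-ON (95% interval 0.45 to 0.66) and 0.36 times in FMC_new (0.33 to 0.41). The other 5 were not called. *Rasa1* fell just short, at 1.49 times in C-ON (95% interval 1.11 to 1.97) and 1.35 times in FMC_new (1.18 to 1.55), and *Spred1* was 1.29 and 1.10 times. *Rasa3* was 1.06 times in C-ON (95% interval 0.89 to 1.26) and 0.80 times in FMC_new (0.74 to 0.87), on either side of 1, *Hras* 0.89 and 1.10 times, and *Nras* 0.76 and 0.81 times. Of all 13851 genes tested, 29.5% were called higher and 11% lower, so 3 and 1 of 9 is near the share of all genes. The median log2 ratio was 0.25 over the 9 genes and 0.36 over the tested genes with a UMI in every sum. TMM scaling lowers every log2 ratio here by about 0.56: *Nf1* then had 0.22 and was not called, *Rasa2* (1.02) and *Spred2* (1.56) stayed higher, and *Nras* and *Rasa3* joined *Rasal2* as lower. *Nf1* was also not called with cells thinned to 1000 UMIs (0.78) or with each cell weighted equally (0.68).

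Against microglia-like cells, 6 of the 9 genes were higher in tumor-like cells and none lower: *Hras*, *Rasa2*, *Rasa3*, *Rasal2*, *Spred1* and *Spred2*. *Hras* was 2.39 times in C-ON (95% interval 1.55 to 3.77) and 2.51 times in FMC_new (2.10 to 3.02). *Spred1* was 2.14 times in C-ON (95% interval 1.53 to 3.02) and 2.77 times in FMC_new (2.38 to 3.24). Both are above 2 times in each library. *Rasa2* was 2.40 times in C-ON (95% interval 1.45 to 4.12) and 3.07 times in FMC_new (2.46 to 3.87), and *Rasa3* 1.96 times in C-ON (95% interval 1.45 to 2.68) and 2.28 times in FMC_new (1.99 to 2.62). For *Rasal2* and *Spred2* the ratios were 2.17 and 1.85 times, and 2.73 and 1.84 times. *Nf1* was not called, at 1.25 times in C-ON (95% interval 0.97 to 1.61) and 1.06 times in FMC_new (0.95 to 1.18), nor were *Nras* (0.11 ± 0.17, log2) and *Rasa1* (0.74 times in C-ON and 0.74 in FMC_new). Here 38.8% of 10771 genes were called higher and 15.5% lower, and the median log2 ratio was 1.08 over the 9 genes against 0.51 over tested genes with a UMI in every sum. TMM scaling, which lowers the log2 ratios by about 0.51, left *Hras*, *Rasa2* and *Spred1* higher, turned *Nf1* to -0.31 and called *Rasa1* lower (-0.95). Thinning to 1000 UMIs left none of the 6 called, with 1.68 for *Rasa2* and 0.52 for *Hras* on the log2 scale.

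Against T cell-like cells, *Nf1*, *Spred1*, *Rasal2*, *Rasa3* and *Hras* were higher in tumor-like cells and *Rasa1* was lower. *Nf1* was 4.15 times in C-ON (95% interval 3.23 to 5.34) and 3.28 times in FMC_new (2.88 to 3.74). *Spred1* was 5.90 times in C-ON (95% interval 4.32 to 8.12) and 7.35 times in FMC_new (6.14 to 8.85). *Rasa1* was 0.42 times in C-ON (95% interval 0.31 to 0.57) and 0.38 times in FMC_new (0.33 to 0.42). For all 6 called genes the CPM values of the 2 classes did not overlap between libraries. The call rule itself favours such genes, and the share among all genes was not counted, so this adds no support. *Rasal2* was 3.19 times in C-ON (95% interval 2.43 to 4.18) and 12.93 times in FMC_new (9.47 to 18.03), and this gap between libraries goes with the higher *Omg* of C-ON in T cell-like cells given above. *Rasa3* was 2.06 and 1.92 times and *Hras* 1.55 and 1.64 times, the call nearest to the limit. *Rasa2*, *Spred2* and *Nras* were not called, with *Spred2* at 2.10 times in C-ON (95% interval 1.52 to 2.88) and 1.17 times in FMC_new (1.00 to 1.36). Of 11974 genes, 33.1% were called higher and 16.6% lower, and the median log2 ratio was 0.67 over the 9 genes against 0.33 over tested genes with a UMI in every sum. The TMM shift here was about 0.32, after which *Hras* was not called and the other 5 calls held. *Hras* was also not called with cells thinned to 1000 UMIs (0.36, log2) or with under 10% mitochondrial UMIs (0.65). Without FMC_new, *Spred2* was called higher. The 3 comparisons share the tumor-like cells, so they are not independent.

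**Figure D5:**
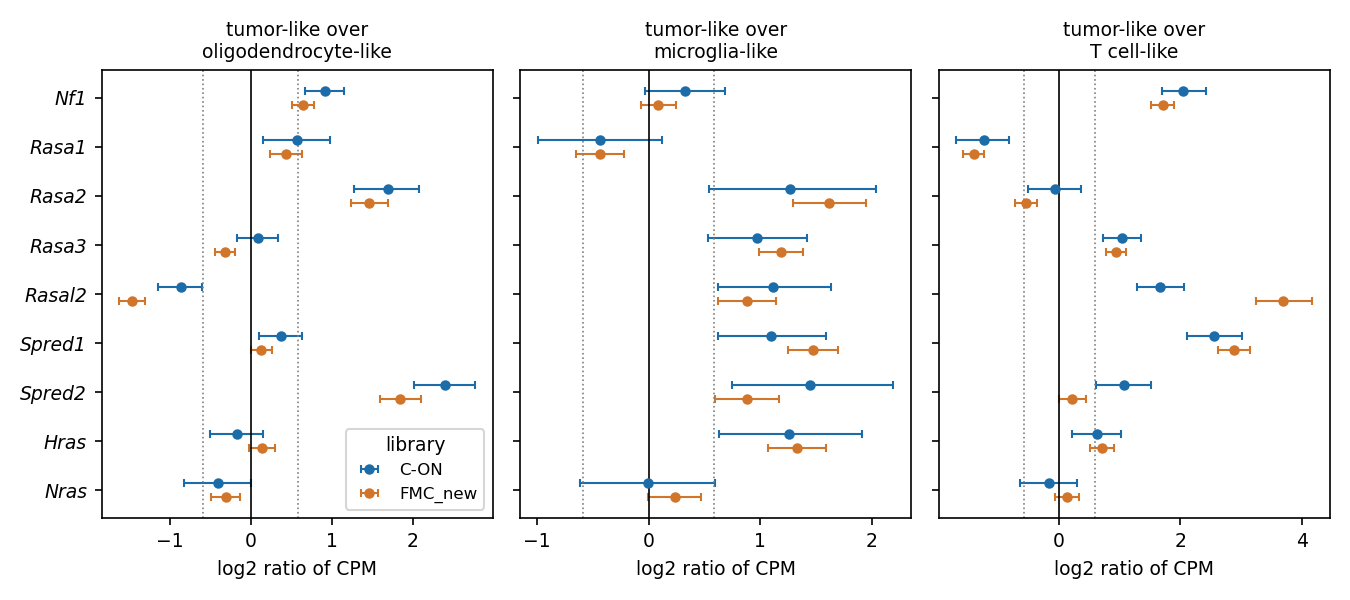
log2 ratio of CPM in tumor-like cells over each of 3 classes (panels) for the 9 genes (rows), with a point per library, bars for the exact 95% interval and dotted lines at 1.5 times. *Nf1* lies right of the dotted line against oligodendrocyte-like and T cell-like cells and between the lines against microglia-like cells.

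The rest of the pathway was read from a list of 35 genes: other RAS GTPases, other GTPase-activating genes, exchange factors, adaptors and modulators, and RAF, MEK and ERK. Against oligodendrocyte-like cells, 33 could be tested, 11 were higher in tumor-like cells and 6 lower, beside 29.5% and 11% of all genes. Against microglia-like cells the counts were 12 and 6 of 31, beside 38.8% and 15.5% of all genes, and against T cell-like cells 10 and 5 of 30, beside 33.1% and 16.6%. The shares called higher were thus close to those of all genes. The median log2 ratios over the list were 0.37, 0.35 and -0.0037, over genes with a UMI in every sum. Of the 8 genes of RAF, MEK and ERK, 2 were higher and 2 lower than in oligodendrocyte-like cells, and 1 was higher and none lower than in microglia-like or T cell-like cells.

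*Rasgrf1*, a calcium-responsive exchange factor of RAS, was higher in tumor-like cells in all 3 comparisons. It had 82.1 CPM in C-ON and 71.8 in FMC_new, against 0.194 and 0.628 CPM in oligodendrocyte-like, 0.889 and 2.35 CPM in microglia-like and 0.266 and 1.11 CPM in T cell-like cells. *Spred3*, the third *Spred* gene, was also higher in all 3, with 19.1 and 11.5 CPM in tumor-like cells and at most 1.05 CPM in the other 3 classes. For *Rasal3*, *Gab1* and *Rasgrp3* the direction depended on the class. *Rasal3*, a GTPase-activating gene of leukocytes, was called higher than in oligodendrocyte-like cells and lower than in microglia-like and T cell-like cells. It had 3.19 and 9.29 CPM in tumor-like cells. These 3 classes had 0.603 and 4.82 CPM, 101 and 106 CPM and 124 and 135 CPM, in this order. In C-ON the call against oligodendrocyte-like cells rests on 4 *Rasal3* UMIs in tumor-like cells and 28 in oligodendrocyte-like cells. The ratio was 5.29 times there (interval 1.35 to 15.1) and 1.93 times in FMC_new (1.39 to 2.66). The part of free leukocyte RNA in these low levels was not tested. *Gab1*, an adaptor of receptor signals, had 128 and 82.8 CPM in tumor-like cells, 238 and 229 CPM in oligodendrocyte-like and 55.1 and 24.5 CPM in microglia-like cells. *Rasgrp3*, an exchange factor, had 55.8 and 14.7 CPM in tumor-like, 163 and 138 CPM in oligodendrocyte-like and 123 and 111 CPM in microglia-like cells. In T cell-like cells *Gab1* had 36.5 and 2.48 CPM and *Rasgrp3* 18.9 and 3.59 CPM, both higher in C-ON, the library with more *Omg* in these cells.

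Among 10060 genes with a mean of at least 10 CPM, the 5 whose pattern over the 24 sums was most like *Nf1* were *Arhgap5* (Pearson r = 0.90), *Cadm1* (0.88), *Atp6v0b* (0.87), *Klhl5* (0.87) and *Atp6v1a* (0.87). *Cadm1* encodes a cell adhesion molecule, and *Atp6v0b* and *Atp6v1a* parts of the proton pump of lysosomes. For the other 8 genes the most alike were *Tdrd7* for *Spred1* (0.93), *Pgm2* for *Spred2* (0.85), *Kif1a* for *Rasal2* (0.95), *Zcchc2* for *Rasa1* (0.87), *Uhrf1bp1l* for *Rasa2* (0.86), *Pde4b* for *Rasa3* (0.82), *Coa3* for *Hras* (0.96) and *Brd7* for *Nras* (0.91). These values describe 24 sums that share 2 libraries, their free RNA and their depth.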

How the data were processed

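Optic nerves of 12-week *Nf1*-OPG mice (10 pooled) were profiled with a 10x 5′ kit as 2 libraries. The authors deposited raw UMI counts per gene and barcode as whole numbers; the submitters' processing notes name Cell Ranger 7.2.0, while the study's methods name an earlier version, and the build is mm10 (GRCm38). The counts were used as deposited.

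Cells with 500 to 5000 genes, 500 to 20000 UMIs and at most 5% mitochondrial UMIs were log-normalized, integrated by CCA on 2000 variable features (without the genes reported) and clustered on 30 components at resolution 0.8 in Seurat 5.3.0 (R 4.3.3). A cluster was named when at least 3 markers of a class were found in at least 20% of its cells at 2 times or more the mean of the clusters. It stayed unnamed where its 10 leading genes pointed to another class, to cycling or to pituitary hormones, or where a second class had nearly as many markers. Details of this naming rule were set after the leading genes had been seen. Doublets were not removed.

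UMIs were summed per class and library and given as CPM with exact 95% Poisson intervals, and ratios with exact conditional binomial intervals, in scipy 1.17.1. A gene was tested with at least 20 UMIs over both classes in each library. Intervals cover counting error only, and whether the libraries came from separate mice is not given. Positions come from GENCODE vM21, in which 32158 of 32285 gene identifiers matched. Scripts were tested on simulated data.

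The 9 genes, the pathway list and the markers were chosen with earlier results of these data known. Named besides the 9 genes were the genes inside *Nf1*, the pathway genes called in all 3 comparisons with the largest further ratio to make 6, the 5 genes most like *Nf1* and the 1 most like each other gene, class markers, and *Gh*. Some items that this rule names are not reported here. *Ccnh*, *Evi2*, *Malat1* and leading genes of clusters were named after their values were seen. Alternatives covered clustering, the mitochondrial limit, doublets, TMM scaling (edgeR 4.0.16), depth, weighting of cells and each library alone.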

Additional observations from a re-analysis of the deposited data

How the results depend on the processing

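The 27 calls (9 genes in 3 comparisons, counting "not called") were all as reported under SCTransform, under resolutions 0.4 and 1.2, without the cells of the highest 10% of Scrublet scores, without cells of other classes with 5% or more *Gh* and *Prl* UMIs, without the oligodendrocyte-like cluster with microglial genes, without that with the highest *Malat1*, without the smaller tumor-like cluster and without C-ON. With under 10% mitochondrial UMIs 26 held (*Hras* against T cell-like cells was lost), with each cell weighted equally 26 (*Nf1* against oligodendrocyte-like cells was lost), without FMC_new 26 (*Spred2* was called higher than in T cell-like cells), and 19 each with TMM scaling and with cells thinned to 1000 UMIs.

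With TMM scaling, genes called lower than in oligodendrocyte-like cells went from 1 to 3, and in the microglia-like comparison those higher from 6 to 3 and those lower from 0 to 1. The log2 ratio of *Nf1* became 0.22 against oligodendrocyte-like, -0.31 against microglia-like and 1.56 against T cell-like cells. TMM lowers all ratios of a comparison alike by its construction. Thinning took the genes called higher than in microglia-like cells from 6 to 0, with fewer UMIs to count. A fold of at least 2 left 0 called lower than in oligodendrocyte-like cells, since *Rasal2* reached 2 times only in FMC_new. Without the oligodendrocyte-like cluster of highest *Malat1*, *Nf1* was 1.07 against the rest. Of the 5 genes most like *Nf1*, 3 remained with log2(CPM + 10) and 3 without oligodendrocyte-like cells; the cause was not tested. No call turned to the opposite direction.

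SCTransform gave 81 and resolution 0.4 90 of the 99 levels, since classes were missing. Of 99 levels, 9 moved by over 1.5 times under TMM scaling, 12 under thinning, and 9 and 7 with C-ON or FMC_new left out. Dropping 1 of 2 libraries stays within their SD by construction. Scrublet's own threshold marked 1 cell in C-ON and 0 in FMC_new and was taken as not working, so the score limit was used in its place; this and the alternatives on hormone UMIs and single clusters were chosen after seeing the data. The highest scores held 24.7% of tumor-like cells. All ratios were taken within a library, so each comparison is paired by library, and no fit without this pairing was made.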

Other observations

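Within the dendritic cell-like class, 2 clusters differed in *Rasa2*, *Spred1* and *Nf1* in both libraries. The smaller, led by *Il12b*, *Ccl22* and *Ccr7*, genes of mature migrating dendritic cells (26 cells in C-ON, 79 in FMC_new), had 209 and 118 CPM of *Rasa2*, against 24.2 and 24.6 CPM in the larger, led by *Xcr1* and *Clec9a*, genes of cross-presenting dendritic cells. *Spred1* had 164 and 142 CPM against 16.1 and 16.0 CPM. *Nf1* went the other way, with 34.8 and 43.0 CPM against 76.7 and 95.7 CPM, and *Rasa3* had 4.97 and 15.0 CPM against 46.4 and 34.6 CPM. The larger cluster had the lower *Malat1*, 6948 and 5623 CPM against 11947 and 10113 CPM.

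Within the T cell-like class, the cluster led by *Themis* and *Grap2* (75 and 332 cells) had the highest *Rasa1* (228 and 243 CPM), *Rasa2* (104 and 145 CPM), *Rasa3* (214 and 159.9 CPM) and *Spred2* (142 and 84.3 CPM) of the 4 T cell-like clusters in both libraries. The lowest *Rasa1* was in the cluster led by *Gzmk* and *Cd40lg*, with 61.8 and 62.1 CPM, and the cluster led by *Tnfrsf4* and *Foxp3*, a regulatory T cell gene, had 130.3 and 159 CPM. The *Themis* cluster had the lowest median depth, 2116 and 2112.5 UMIs per cell, and the highest *Malat1*, 13042 and 10606 CPM, and their part in these values was not tested. *Hras* was lowest there, with 23.7 and 12.4 CPM.

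Pituitary endocrine-like cells, with a value in FMC_new only (1696 cells), had 82.6 CPM of *Rasal2*, 68.3 of *Nf1* and 8.58 of *Spred1*. Astrocyte-like cells of FMC_new (153 cells) had 105 CPM of *Spred1*, 89.5 of *Rasal2* and 74.2 of *Nf1*.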
